A study of Homo sapiens with 12 samples.

Results

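The genes described here are the receptors and ligands of the tumour necrosis factor (TNF) superfamily, measured as RNA in young and senescent human fibroblasts. They were chosen by symbol, as every gene named TNFRSF or TNFSF with a number and at most 1 letter, together with FAS, CD40, LTBR, NGFR and EDA2R, which kept older names. The rule gave 37 of the 55737 genes in each table and used no measured value. By role these were 7 receptors with a death domain, 4 decoy or soluble receptors, 15 receptors without a death domain and 11 ligands.

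The cells were HCA2 (MJ90), a line of human skin fibroblasts, in which doxycycline switches on a short hairpin RNA against FBXO22 (shFbxo22) or against luciferase (shLuc), an enzyme that human cells do not have. FBXO22 picks the proteins that an SCF ubiquitin ligase marks for breakdown. There were 4 groups of 3 libraries, all listed with 10% serum. The shFbxo22 cells were either made senescent by 10 Gy of ionizing radiation or young, at low passage, and the shLuc cells were in the same senescent and young states. All groups came from 1 cell line, and separate cultures behind a group's libraries are not stated in the labels. The p-values therefore measure the spread between libraries, which may be technical. The doxycycline dose and time, and the days from radiation to harvest, were not given in the sources used here.

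TNF superfamily ligands are mostly trimeric proteins of the cell surface, some of which are shed, and their receptors carry cysteine-rich domains outside the cell. Receptors with a death domain can recruit the adaptors FADD or TRADD and, through caspase-8, start apoptosis. The others bind TRAF adaptors and act on NF-kB and stress kinases. Decoy receptors bind a ligand and pass on no full signal. In skin fibroblasts the family is known for inflammatory responses to TNF, for matrix turnover, and for setting how readily cells die when immune cells present FAS ligand or TRAIL. FAS, the TRAIL receptor genes and EDA2R are known targets of p53, a transcription factor that radiation activates.

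The authors deposited 4 tables of comparisons, each of 6 libraries, with a log2 fold change, its standard error (given after ±) and an adjusted p-value from the Wald test of DESeq2. A gene was called where the adjusted p was under 0.05, and fold changes here divide senescent by young or shFbxo22 by shLuc. In 2 of the tables the sign had to be turned, as settled from the base means (the authors' mean normalized counts over the 6 libraries of a table). Group means below were rebuilt from base means and fold changes, carry no error, and are given only where the 2 tables that hold a group differ by less than 0.2 in log2. The base means summed to between 21875579 and 21895679 per table, which is nearly the same total in each, so the depth per library is unknown. In RNA from whole cultures, fewer cells with a transcript and less of it per cell cannot be told apart.

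FBXO22, the targeted gene, went against the label in senescent cells, being higher in the libraries labelled shFbxo22 by 1.01 ± 0.12 (adjusted p = 7.91e-15) in the authors' deposited table. Among young cells it was lower with shFbxo22 than with shLuc, at -0.81 ± 0.15 (adjusted p = 1.07e-06) in the authors' deposited table. The means rebuilt from the authors' deposited tables were 746 in the libraries labelled shFbxo22 senescent, 254 in young shFbxo22, 371 in senescent shLuc and 438 in young shLuc cells. What the libraries labelled shFbxo22 senescent show is therefore given for the label, not for less FBXO22. The comparison of the hairpins in young cells, and that of senescent with young shLuc cells, do not use those libraries.

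All 10 fibroblast markers (such as COL1A1, VIM and THY1) had base means above 10 in each of the authors' deposited tables, the lowest being 4055. Of 4 keratinocyte markers 1 passed 10 (summed base mean 40.3 to 47.2), of 6 immune markers 2 or 3 (49.2 to 64.8) and of 5 melanocyte markers 2 (984 to 1597, nearly all MITF) in the authors' deposited tables. Of 4 endothelial markers 3 were found in the authors' deposited tables, and PECAM1 was absent. Among these 3 markers 1 or 2 passed, and their summed base mean ran from 52.7 to 422 in the authors' deposited tables. KDR, which encodes a VEGF receptor, was lower in the libraries labelled shFbxo22 senescent than in senescent shLuc cells by the authors' deposited table, at -4.65 ± 0.40 (adjusted p = 9.02e-30). In young cells KDR was at -1.41 ± 0.50 (adjusted p = 0.0155) between the hairpins and VWF, another endothelial marker, at 1.26 ± 0.30 (adjusted p = 0.000173), so that these 2 went opposite ways in the authors' deposited table. For KDR the 2 tables that hold a group gave means up to 5.52 apart in log2. The sizes of its fold changes are therefore uncertain, and -4.65 and -1.41 cannot be compared. CDH5, which defines endothelium, was at or near 0 in each of the authors' deposited tables. PTPRC (CD45) was higher in the libraries labelled shFbxo22 senescent than in senescent shLuc cells by 2.88 ± 0.62 (adjusted p = 1.63e-05) in the authors' deposited table, at a base mean of 7.58. The other 2 of the 3 tested immune markers were split there. CD14 was called higher, by 0.90, and CD68 was at -0.80 and not called, in the authors' deposited table.

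The markers moved with senescence too. VWF fell in shFbxo22 cells, at -0.96 ± 0.27 (adjusted p = 0.00408), and rose in shLuc cells by 1.36 ± 0.30 (adjusted p = 3.71e-05), in the authors' deposited tables. KDR went the other way in shLuc cells, at -1.37 in the authors' deposited table, and was not called. In shFbxo22 cells KDR had no adjusted p, so the endothelial markers show no common direction. MITF was at 0.12 ± 0.12 in shFbxo22 cells (adjusted p = 0.62) and rose in shLuc cells by 1.24 ± 0.11 (adjusted p = 6.38e-28), in the authors' deposited tables. Of the 3 tested immune markers 0 were called in shFbxo22 cells. In shLuc cells PTPRC was called lower, at -1.71, and CD68 higher, by 1.20, while CD14 was not called, in the authors' deposited table. Of the 10 fibroblast markers 6 were called lower and 0 higher in shFbxo22 cells, and 4 lower and 4 higher in shLuc cells, in the authors' deposited tables. Of all genes 9.57% were lower and 8.16% higher in shFbxo22 cells, and 21.3% lower and 21.2% higher in shLuc cells. The response differed between the hairpins for 6 of them, 2 with the higher response in shFbxo22 cells and 4 with the lower one. That is 60.0%, against 37.0% of all genes. Those of DCN, PDGFRA, LUM and PDGFRB differed by -2.76, -2.16, -1.84 and -1.46, and those of THY1 and S100A4 by 0.37 and 0.33, computed from the authors' deposited tables. The part of these markers in the results below was not tested.

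Promoter sequence was taken from RefSeq (GRCh38.p14), which held 32 windows for 24 of the 37 genes. The 250 bases before the start were searched on both strands for 3 motifs: the p53 half-site, TGANTCA (bound by AP-1) and the core of the interferon-stimulated response element (ISRE: GAAA, any 2 bases, then GAAA). Of all 35116 promoter windows of this length 5.57% held the half-site, 6.57% held TGANTCA and 3.02% the ISRE core. Of the 24 genes, 11 held at least 1 of the 3 motifs in any of their windows. These counts are per gene and the shares per window, so they cannot be compared. The half-site was found for 4 genes (FAS, LTBR, TNFRSF19 and TNFSF15), the ISRE core for 4 (TNFRSF1B, TNFSF10, TNFSF13B and TNFSF9) and TGANTCA for 5 (EDA2R, FAS, TNFRSF9, TNFSF14 and TNFSF15). Members not named here, the TRAIL receptor genes among them, had either no window or no match. The best known p53 sites of FAS lie in an intron, outside such windows. A match is a string of letters and not a measured binding site.

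A first set of 3 windows is shown because these receptors differed in their hairpin comparison: FAS and EDA2R were higher with shFbxo22 in both states, and LTBR was not. Sequences run from 5′ to 3′ on the gene's strand, with the motif in capitals and no overlap between motifs. In FAS (chr10:88991181-88991430, plus strand) and LTBR (chr12:6383912-6384161, plus strand) the capitals mark a p53 half-site. In EDA2R (chrX:66639079-66639328, minus strand) they mark TGANTCA, and no half-site was found.

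FAS: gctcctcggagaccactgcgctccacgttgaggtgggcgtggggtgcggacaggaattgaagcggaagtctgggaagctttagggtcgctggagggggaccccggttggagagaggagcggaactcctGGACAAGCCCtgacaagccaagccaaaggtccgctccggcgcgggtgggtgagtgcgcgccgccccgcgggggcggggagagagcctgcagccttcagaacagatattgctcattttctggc
LTBR: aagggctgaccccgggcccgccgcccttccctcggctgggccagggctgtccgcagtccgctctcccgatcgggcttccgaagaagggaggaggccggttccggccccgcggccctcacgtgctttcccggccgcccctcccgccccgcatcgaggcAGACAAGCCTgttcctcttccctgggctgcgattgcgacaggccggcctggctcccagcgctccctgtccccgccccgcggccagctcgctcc
EDA2R: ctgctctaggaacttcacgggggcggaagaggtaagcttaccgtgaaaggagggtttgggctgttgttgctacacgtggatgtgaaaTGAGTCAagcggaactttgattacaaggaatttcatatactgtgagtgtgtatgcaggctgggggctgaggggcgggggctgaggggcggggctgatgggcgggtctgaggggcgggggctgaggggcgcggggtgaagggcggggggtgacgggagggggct

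The half-site of FAS lies 122 to 113 bases before the start and that of LTBR 93 to 84, while TGAGTCA of EDA2R lies 163 to 157 bases before it. The second set is shown because TNFRSF1B and TNFSF13B were both lower in the libraries labelled shFbxo22 senescent than in senescent shLuc cells, and both windows hold the ISRE core. The window of TNFSF13B (chr13:108269468-108269717, plus strand) has it 71 to 62 bases before the start. That of TNFRSF1B (chr1:12166741-12166990, plus strand) has it on the other strand in the last 10 bases. TNFSF10 and TNFSF9 hold the same motif and did not share that direction. In the same comparison TNFSF9 was called higher, by 2.01, and TNFSF10 was not called. Both are described with the ligands.

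TNFSF13B: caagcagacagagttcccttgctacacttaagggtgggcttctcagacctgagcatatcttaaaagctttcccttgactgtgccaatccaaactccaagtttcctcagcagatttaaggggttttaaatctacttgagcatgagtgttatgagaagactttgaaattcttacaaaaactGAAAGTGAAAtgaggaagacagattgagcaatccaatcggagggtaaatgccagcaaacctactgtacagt
TNFRSF1B: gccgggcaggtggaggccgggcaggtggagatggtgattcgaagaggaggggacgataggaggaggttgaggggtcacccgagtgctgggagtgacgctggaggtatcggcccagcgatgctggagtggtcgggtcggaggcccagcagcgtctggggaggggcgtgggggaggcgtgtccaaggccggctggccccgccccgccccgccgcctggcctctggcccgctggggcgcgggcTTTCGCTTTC

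Of the 37 genes, 28 had an adjusted p in at least 1 of the authors' deposited tables and 23 in all 4. The other 9 had none: TNFRSF4, TNFRSF9, TNFRSF13B, TNFRSF13C, TNFRSF17, the decoy TNFRSF6B, and the ligands TNFSF8, TNFSF11 and TNFSF14. Most of them are known from lymphocytes, and their highest base mean in the authors' deposited tables was 2.16, with TNFRSF6B and TNFSF14 at 0 throughout. For TNFRSF6B the 0 does not show that the gene was silent. Of its 50-base stretches 100% also occur in transcripts of RTEL1-TNFRSF6B, so reads may not be assigned to it alone. The counts below cover only genes with enough reads to be tested.

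Members, receptors and ligands together, were more often called higher than lower with shFbxo22, most of all in young cells. In senescent cells the authors' deposited table called 17 of 28 tested members in the libraries labelled shFbxo22 against shLuc, 10 higher and 7 lower, or 60.7%. There the background was 40.1% of 22788 genes (20.2% higher and 19.9% lower), and the median log2 fold change was 0.28 for members and -0.01 for all genes. In young cells the authors' deposited table called 14 of 25 members higher and 3 lower, which is 68.0%, against 35.9% of all 20082 genes tested (18.7% higher and 17.3% lower). The members' median was 0.53 and that of all genes -0.01, computed from the authors' deposited table.

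With senescence the calls were fewer, 13 under one hairpin and 12 under the other. In shFbxo22 cells the authors' deposited table called 9 of 24 higher and 4 lower, 54.2%, against 17.7% of 18758 genes (8.16% higher and 9.57% lower). With shLuc the authors' deposited table called 9 of 26 higher and 3 lower. That is 46.2%, close to the background of 42.6% of 21889 genes (21.2% higher and 21.3% lower). The members' medians computed from the authors' deposited tables were -0.01 in shFbxo22 and 0.31 in shLuc cells, where the medians of all genes were 0.00 and -0.00.

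**Figure D1:**
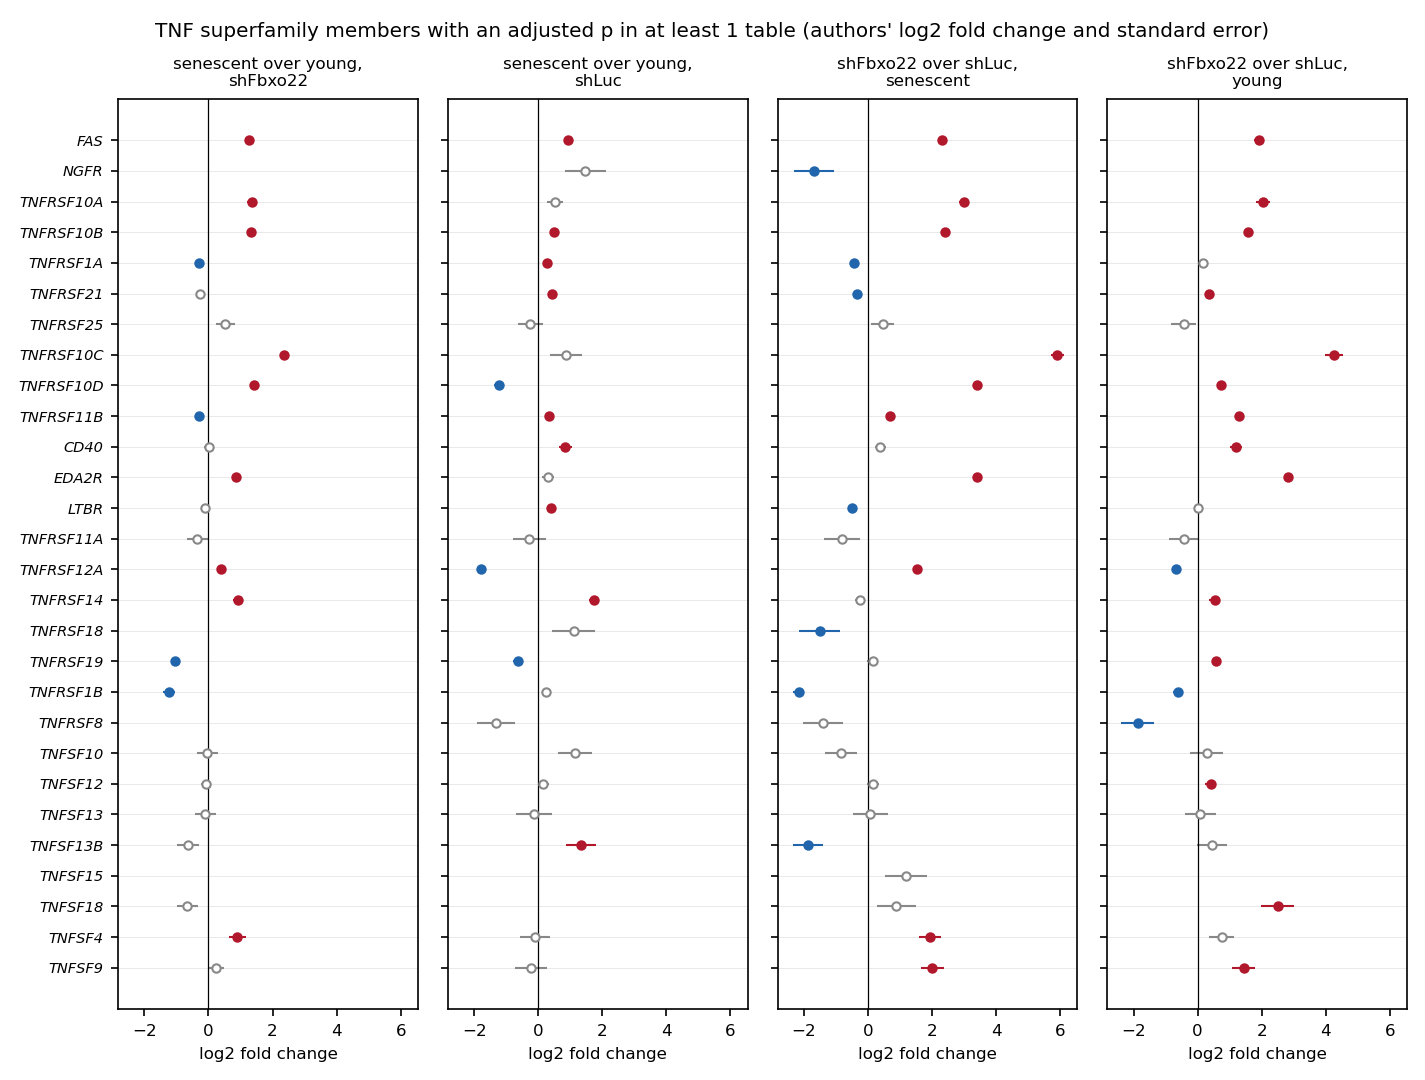
Log2 fold change (horizontal axis, with the standard error as a bar) of the 28 tested members, 1 panel for each of the authors' 4 comparisons, each of 3 against 3 libraries. Red points were called higher and blue points lower at an adjusted p under 0.05, open points were not called, and a missing point had no adjusted p. FAS and the TRAIL receptor genes TNFRSF10A to TNFRSF10D stand to the right of 0 in both hairpin panels, with TNFRSF10C farthest at 5.90 in senescent and 4.26 in young cells.

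The death receptors for FAS ligand and TRAIL were higher with shFbxo22 in both states. FAS, the receptor for FAS ligand, had a mean of 2398 in the libraries labelled shFbxo22 senescent, 972 in young shFbxo22, 481 in senescent shLuc and 251 in young shLuc cells, rebuilt from the authors' deposited tables. Both shFbxo22 means stood above both shLuc means, and each senescent mean above its young one. Against shLuc the difference was 2.31 ± 0.11 in senescent cells (adjusted p = 3.1e-100) and 1.92 ± 0.14 in young ones (adjusted p = 3.52e-38) in the authors' deposited tables. With senescence FAS rose by 1.28 ± 0.12 in shFbxo22 (adjusted p = 1.7e-26) and by 0.94 ± 0.15 in shLuc cells (adjusted p = 1.34e-09) in the authors' deposited tables.

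TNFRSF10B encodes TRAIL-R2 (DR5), and TNFRSF10A encodes TRAIL-R1 (DR4). The means of TNFRSF10B rebuilt from the authors' deposited tables were 7321 in the libraries labelled shFbxo22 senescent, 2892 in young shFbxo22, 1361 in senescent shLuc and 964 in young shLuc cells. Those of TNFRSF10A were 706, 265, 87.2 and 60.4 in the same 4 groups, rebuilt from the authors' deposited tables. Both genes thus kept the group order of FAS. In senescent cells TNFRSF10B was higher with shFbxo22 by 2.42 ± 0.08 (adjusted p = 2.73e-181) and TNFRSF10A by 3.0 ± 0.16 (adjusted p = 1.49e-76) in the authors' deposited table. For young cells TNFRSF10B was higher by 1.56 ± 0.10 (adjusted p = 1.18e-58) and TNFRSF10A by 2.05 ± 0.22 (adjusted p = 1.14e-19) in the authors' deposited table.

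With senescence both TRAIL death receptors rose in shFbxo22 cells, and only TNFRSF10B passed the test in shLuc cells. TNFRSF10B rose by 1.32 ± 0.09 in shFbxo22 (adjusted p = 6.74e-50) and by 0.49 ± 0.10 in shLuc cells (adjusted p = 2.6e-06) in the authors' deposited tables. TNFRSF10A rose by 1.36 ± 0.16 in shFbxo22 cells (adjusted p = 1.82e-16), against 0.54 ± 0.25 in shLuc cells (adjusted p = 0.0735), in the authors' deposited tables.

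The remaining death-domain receptors did not share this pattern. TNFRSF1A, the main receptor for TNF, had means of 3852 in the libraries labelled shFbxo22 senescent, 4765 in young shFbxo22, 5202 in senescent shLuc and 4252 in young shLuc cells, rebuilt from the authors' deposited tables. With senescence it fell in shFbxo22 cells, at -0.31 ± 0.10 (adjusted p = 0.0134), and rose by 0.29 ± 0.08 in shLuc cells (adjusted p = 0.000996) in the authors' deposited tables. These are small changes, in opposite directions. Between the hairpins it was lower in the libraries labelled shFbxo22 senescent, at -0.44 ± 0.09 (adjusted p = 8.69e-06), and was at 0.16 ± 0.09 in young cells (adjusted p = 0.15), in the authors' deposited tables.

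TNFRSF21, or death receptor 6, had means of 420 in the libraries labelled shFbxo22 senescent, 500.3 in young shFbxo22, 529.6 in senescent shLuc and 389.5 in young shLuc cells, rebuilt from the authors' deposited tables. With senescence it was at -0.26 ± 0.12 in shFbxo22 cells (adjusted p = 0.155) and rose by 0.44 ± 0.12 in shLuc cells (adjusted p = 0.00135), in the authors' deposited tables. Its hairpin differences, -0.34 ± 0.12 in senescent cells (adjusted p = 0.0131) and 0.35 ± 0.13 in young cells (adjusted p = 0.0183) in the authors' deposited tables, had opposite signs. TNFRSF25 (death receptor 3) passed no test, with log2 fold changes between -0.44 and 0.53 in the authors' deposited tables. NGFR, the low-affinity neurotrophin receptor, was close to the detection limit, with base means up to 5.62 in the authors' deposited tables. It was called once, lower in the libraries labelled shFbxo22 senescent than in senescent shLuc cells, at -1.69 ± 0.62 (adjusted p = 0.019) in the authors' deposited table. The size of this change is uncertain, since rebuilt means of a group were up to 1.29 apart in log2 for NGFR.

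Both decoy receptors for TRAIL were higher with shFbxo22 too, and TNFRSF10C had the largest fold change of the tested members in both hairpin comparisons. TNFRSF10C (TRAIL-R3) is tethered by a lipid anchor without a signalling tail, and TNFRSF10D (TRAIL-R4) has a truncated death domain. The difference of TNFRSF10C between the hairpins was 5.90 ± 0.20 in senescent cells (adjusted p = 1.48e-180) and 4.26 ± 0.28 in young cells (adjusted p = 1.66e-49) in the authors' deposited tables. Its base mean was 780.4 in the authors' deposited table of the 6 shFbxo22 libraries and 14.6 in that of the 6 shLuc libraries. With senescence it rose by 2.35 ± 0.12 in shFbxo22 cells (adjusted p = 1.44e-87) and was at 0.87 ± 0.49 in shLuc cells (adjusted p = 0.145), in the authors' deposited tables. TNFRSF10C is uncertain as a single gene, since 35.4% of its 50-base stretches also occur in transcripts of other genes (GENCODE v29), against 1.0% or less for the other TRAIL receptor genes.

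TNFRSF10D had means of 2317 in the libraries labelled shFbxo22 senescent, 853 in young shFbxo22, 215 in senescent shLuc and 500.0 in young shLuc cells, rebuilt from the authors' deposited tables. Senescent cells stood highest of the 4 groups under one hairpin and lowest under the other. With senescence it rose by 1.42 ± 0.10 in shFbxo22 cells (adjusted p = 1.61e-40) and fell in shLuc cells, at -1.22 ± 0.14 (adjusted p = 3.32e-16), in the authors' deposited tables. Against shLuc it was higher by 3.42 ± 0.12 in senescent cells (adjusted p = 6.47e-174) and by 0.74 ± 0.12 in young cells (adjusted p = 2.03e-09) in the authors' deposited tables. The 4 TRAIL receptor genes lie together on chromosome 8, with 0 other protein-coding genes between them in RefSeq.

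TNFRSF11B, or osteoprotegerin, is a secreted decoy that binds RANKL and TRAIL. Its means were 7344 in the libraries labelled shFbxo22 senescent, 9022 in young shFbxo22, 4554 in senescent shLuc and 3622 in young shLuc cells, rebuilt from the authors' deposited tables. It was higher with shFbxo22 by 0.68 ± 0.09 in senescent cells (adjusted p = 1.71e-13) and by 1.31 ± 0.09 in young cells (adjusted p = 1.86e-50) in the authors' deposited tables. With senescence it fell in shFbxo22 cells, at -0.30 ± 0.09 (adjusted p = 0.011), and rose in shLuc cells by 0.33 ± 0.08 (adjusted p = 0.000197), in the authors' deposited tables.

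**Figure D2:**
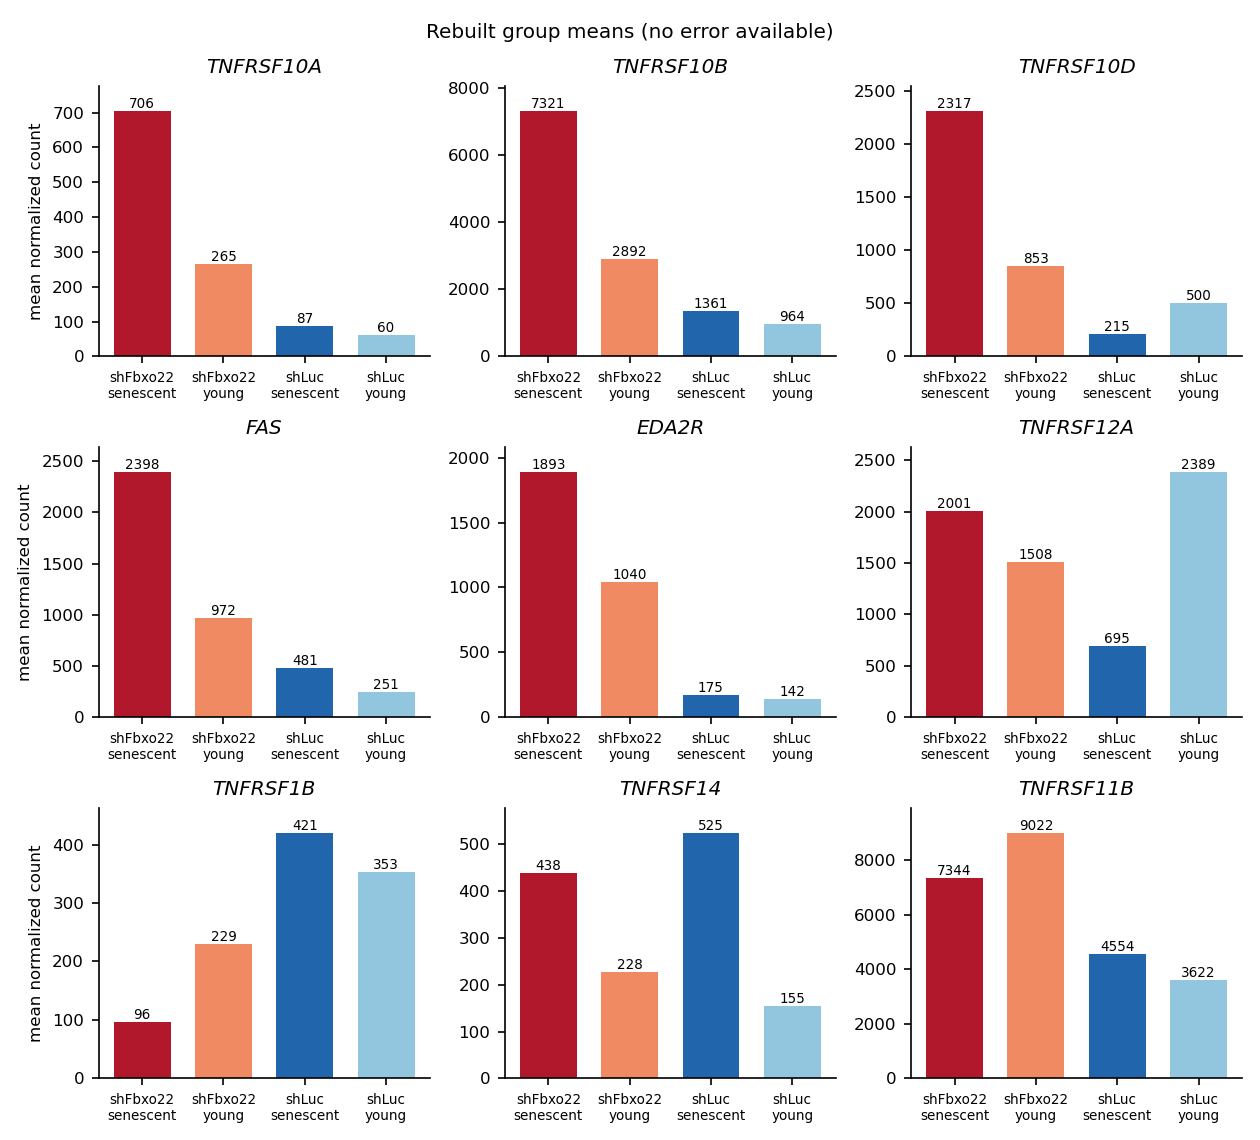
Mean normalized count (vertical axis, from 0, with its own scale for each gene) of 9 members in the 4 groups, rebuilt from the authors' tables for 3 libraries a group and shown without error bars because none can be had. TNFRSF10A, TNFRSF10B, FAS and EDA2R fall into 1 order of groups, with 706, 7321, 2398 and 1893 in the libraries labelled shFbxo22 senescent. TNFRSF1B is lowest in those libraries at 95.6, and TNFRSF12A is lowest in senescent shLuc cells at 695.

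Receptors without a death domain split by gene. EDA2R (XEDAR), which binds the A2 form of ectodysplasin, had means of 1893 in the libraries labelled shFbxo22 senescent, 1039.7 in young shFbxo22, 175 in senescent shLuc and 142 in young shLuc cells, rebuilt from the authors' deposited tables. The gap lay between the hairpins: 3.42 ± 0.13 in senescent cells (adjusted p = 1.99e-151), or 10.7-fold, and 2.83 ± 0.13 in young cells (adjusted p = 1.08e-96), or 7.14-fold, in the authors' deposited tables. With senescence it rose by 0.85 ± 0.11 in shFbxo22 cells (adjusted p = 2.56e-12), against 0.30 ± 0.18 in shLuc cells (adjusted p = 0.182), in the authors' deposited tables.

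TNFRSF12A, or Fn14, is the receptor for TWEAK and is induced by growth factors. Its means were 2001 in the libraries labelled shFbxo22 senescent, 1508 in young shFbxo22, 695 in senescent shLuc and 2389 in young shLuc cells, rebuilt from the authors' deposited tables. With senescence it rose by 0.40 ± 0.14 in shFbxo22 cells (adjusted p = 0.0256) and fell in shLuc cells, at -1.78 ± 0.11 (adjusted p = 3.45e-60), in the authors' deposited tables. The hairpin difference also turned with the state. It was 1.52 ± 0.12 in senescent cells (adjusted p = 7.82e-34) and -0.67 ± 0.13 in young cells (adjusted p = 1.7e-06) in the authors' deposited tables.

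TNFRSF1B, the second TNF receptor, was lower with shFbxo22 in both states. The means rebuilt from the authors' deposited tables were 95.6 in the libraries labelled shFbxo22 senescent, 229 in young shFbxo22, 421 in senescent shLuc and 353 in young shLuc cells. Against shLuc it was at -2.16 ± 0.17 in senescent cells (adjusted p = 7.9e-34) and -0.61 ± 0.15 in young cells (adjusted p = 0.00027) in the authors' deposited tables. With senescence it fell in shFbxo22 cells, at -1.22 ± 0.19 (adjusted p = 2.62e-09), and was at 0.25 ± 0.13 in shLuc cells (adjusted p = 0.118), in the authors' deposited tables.

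CD40, through which T cells activate antigen-presenting cells and fibroblasts, had means of 227 in the libraries labelled shFbxo22 senescent, 223 in young shFbxo22, 172 in senescent shLuc and 95.9 in young shLuc cells, rebuilt from the authors' deposited tables. Young shLuc cells stood apart as the lowest group. Between the hairpins CD40 was at 0.39 ± 0.17 in senescent cells (adjusted p = 0.0538) and higher with shFbxo22 in young cells by 1.20 ± 0.19 (adjusted p = 5.96e-09) in the authors' deposited tables. With senescence it was at 0.02 ± 0.16 in shFbxo22 cells (adjusted p = 0.974) and rose in shLuc cells by 0.84 ± 0.20 (adjusted p = 0.000122), in the authors' deposited tables.

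LTBR, the lymphotoxin-beta receptor, had means of 3273 in the libraries labelled shFbxo22 senescent, 3543 in young shFbxo22, 4638 in senescent shLuc and 3532 in young shLuc cells, rebuilt from the authors' deposited tables. Senescent shLuc cells were the group that differed. With senescence LTBR was at -0.12 ± 0.11 in shFbxo22 cells (adjusted p = 0.585) and rose in shLuc cells by 0.39 ± 0.08 (adjusted p = 8.26e-06), in the authors' deposited tables. Between the hairpins it was lower in the libraries labelled shFbxo22 senescent, at -0.51 ± 0.10 (adjusted p = 9.98e-07), and at -0.00 ± 0.10 in young cells (adjusted p = 0.992), in the authors' deposited tables.

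TNFRSF14 (HVEM), which binds the ligand LIGHT, rose with senescence under both hairpins. Its means were 438 in the libraries labelled shFbxo22 senescent, 228 in young shFbxo22, 525 in senescent shLuc and 155 in young shLuc cells, rebuilt from the authors' deposited tables. The rise was 0.91 ± 0.15 in shFbxo22 cells (adjusted p = 7.26e-08) and 1.75 ± 0.15 in shLuc cells (adjusted p = 5.75e-30) in the authors' deposited tables. Against shLuc it was at -0.26 ± 0.14 in senescent cells (adjusted p = 0.126) and higher in young cells by 0.53 ± 0.18 (adjusted p = 0.011) in the authors' deposited tables.

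TNFRSF19 (TROY), a receptor known from the nervous system and hair follicle, fell under both. Its means were 252 in the libraries labelled shFbxo22 senescent, 522 in young shFbxo22, 225 in senescent shLuc and 348 in young shLuc cells, rebuilt from the authors' deposited tables. The change with senescence was -1.04 ± 0.13 in shFbxo22 cells (adjusted p = 1.06e-13) and -0.63 ± 0.16 in shLuc cells (adjusted p = 0.000232) in the authors' deposited tables. Between the hairpins it was at 0.14 ± 0.16 in senescent cells (adjusted p = 0.542) and higher with shFbxo22 in young cells by 0.58 ± 0.13 (adjusted p = 3.47e-05), in the authors' deposited tables.

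The other 3 tested receptors had base means of at most 11.9 in the authors' deposited tables. TNFRSF18 (GITR) was called lower with shFbxo22 in senescent cells, at -1.50 ± 0.64 (adjusted p = 0.0467), and TNFRSF8 (CD30) in young cells, at -1.87 ± 0.52 (adjusted p = 0.0013), in the authors' deposited tables. The sizes of these 2 fold changes are uncertain. Rebuilt means of a group were up to 1.24 apart in log2 for TNFRSF18 and up to 2.15 for TNFRSF8. The call of TNFRSF18 was lost, with an adjusted p of 0.0726, when p-values from the authors' deposited table were adjusted over all genes without the filter on low counts. TNFRSF11A (RANK) was called in none of the 4, with log2 fold changes between -0.81 and -0.28 in the authors' deposited tables.

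Ligands were few and low. Of the 11 ligand genes 8 were tested at least once, and apart from TNFSF12 their base means were at most 50.9 in the authors' deposited tables. TNFSF9 (4-1BBL), a co-stimulator of T cells, had means of 54.6 in the libraries labelled shFbxo22 senescent, 45.2 in young shFbxo22, 12.8 in senescent shLuc and 15.1 in young shLuc cells, rebuilt from the authors' deposited tables. Both shFbxo22 groups stood above both shLuc groups. TNFSF9 was higher with shFbxo22 by 2.01 ± 0.37 in senescent cells (adjusted p = 4e-07) and 1.44 ± 0.36 in young cells (adjusted p = 0.000317) in the authors' deposited tables, and neither senescence comparison called it.

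TNFSF4 (OX40L), another T-cell co-stimulator, had base means of 45.3 in the authors' deposited table of shFbxo22 libraries and 14.7 in that of shLuc libraries. It rose with senescence in shFbxo22 cells by 0.90 ± 0.26 (adjusted p = 0.0051), against -0.09 ± 0.47 in shLuc cells (adjusted p = 0.905), in the authors' deposited tables. It was also higher in the libraries labelled shFbxo22 senescent than in senescent shLuc cells by 1.95 ± 0.35 (adjusted p = 1.45e-07) in the authors' deposited table. For young cells its hairpin difference, 0.75 ± 0.38 in the authors' deposited table, was not called (adjusted p = 0.117). TNFSF18 (GITRL) was called once, higher with shFbxo22 in young cells by 2.50 ± 0.52 (adjusted p = 1.14e-05) in the authors' deposited table, at a base mean of 8.58. The size of that change is uncertain, since rebuilt means of a group were up to 1.38 apart in log2 for TNFSF18.

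TNFSF13B (BAFF), a survival factor for B cells, was at its highest in senescent shLuc cells. Its means were 7.53 in the libraries labelled shFbxo22 senescent, 12.9 in young shFbxo22, 26.1 in senescent shLuc and 10.1 in young shLuc cells, rebuilt from the authors' deposited tables. With senescence it was at -0.64 ± 0.33 in shFbxo22 cells (adjusted p = 0.202) and rose by 1.34 ± 0.47 in shLuc cells (adjusted p = 0.0116), in the authors' deposited tables. Between senescent cells it was lower in the libraries labelled shFbxo22, at -1.86 ± 0.46 (adjusted p = 0.000206) in the authors' deposited table.

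TNFSF10, which encodes TRAIL itself, passed no test in any comparison, while all 4 of its receptor genes named TNFRSF10 did. Its means were 8.69 in the libraries labelled shFbxo22 senescent, 8.36 in young shFbxo22, 16.1 in senescent shLuc and 6.95 in young shLuc cells, rebuilt from the authors' deposited tables. The change with senescence was -0.03 ± 0.33 in shFbxo22 cells (adjusted p = 0.977) and 1.15 ± 0.54 in shLuc cells (adjusted p = 0.0734) in the authors' deposited tables. TNFSF12 (TWEAK) was called once, higher with shFbxo22 in young cells by 0.40 ± 0.16 (adjusted p = 0.0331) in the authors' deposited table. Without the filter on low counts its adjusted p, from the p-values of the authors' deposited table, was 0.0582. TNFSF13 (APRIL) and TNFSF15 (TL1A) were called nowhere, and the counts of TNFSF12 and TNFSF13 are uncertain because 26.9% and 48.5% of their 50-base stretches occur in the readthrough transcript that joins them.

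Whether the senescence response of a member differed between the hairpins was tested as the shFbxo22 minus the shLuc log2 fold change over their joint standard error, with Benjamini-Hochberg adjustment over 18598 genes. The 2 tables share no library. Their fold changes were moderated towards 0 by different amounts, more so for low genes. Differences of genes with few reads, such as TNFSF13B, or TNFRSF10C in shLuc cells, are therefore uncertain in size. Of 23 members 14 differed (60.9%, against 37.0% of all genes), 6 of them with the higher response in shFbxo22 cells and 8 with the lower one. Among all genes 18.8% were higher and 18.1% lower, and the median difference was -0.07 for the members and 0.03 for all genes. The largest differences upward were 2.64 ± 0.18 for TNFRSF10D (adjusted p = 8.7e-48) and 2.18 ± 0.17 for TNFRSF12A (adjusted p = 5.5e-34), taken from the authors' deposited tables. TNFRSF10C differed by 1.48 ± 0.50 (adjusted p = 0.0109), TNFRSF10B by 0.83 ± 0.13 (adjusted p = 3.2e-09), TNFRSF10A by 0.83 ± 0.30 (adjusted p = 0.0173) and EDA2R by 0.55 ± 0.21 (adjusted p = 0.0314), by the same test on the authors' deposited tables. The TRAIL receptors made up 4 of these 6. At an adjusted p under 0.01 3 of the 6 passed, namely TNFRSF10D, TNFRSF12A and TNFRSF10B, while TNFRSF10C and TNFRSF10A did not.

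In the other direction TNFSF13B differed by -1.98 ± 0.57 (adjusted p = 0.0024) and TNFRSF1B by -1.47 ± 0.23 (adjusted p = 1.9e-09), taken from the authors' deposited tables. The remaining 6 differences lay between -0.84 and -0.51, for TNFRSF14, CD40, TNFRSF21, TNFRSF11B, TNFRSF1A and LTBR. FAS did not pass the test, with a difference of 0.34 and a 95% interval of -0.03 to 0.70 (adjusted p = 0.151), nor did TNFRSF19, at -0.41 with an interval of -0.81 to -0.01 (adjusted p = 0.103), both from the authors' deposited tables. For FAS an additional rise in shFbxo22 cells of more than 0.70 thus lies outside the interval.

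**Figure D3:**
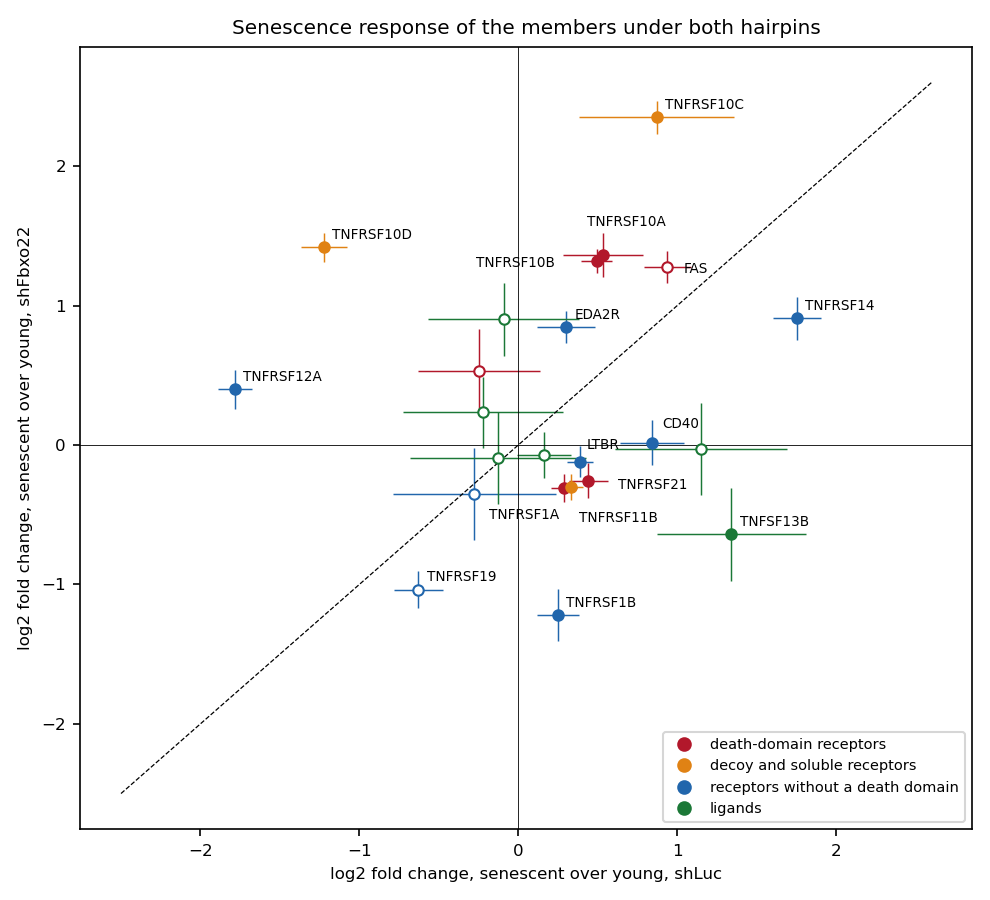
Log2 fold change of senescent over young cells in shFbxo22 (vertical axis) against shLuc cells (horizontal axis) for the 23 members tested in both, with the authors' standard errors as bars and the role as colour. Filled points differed between the hairpins at an adjusted p under 0.05, and the dashed line marks equal responses. TNFRSF10D (1.42 and -1.22) and TNFRSF12A (0.40 and -1.78) stand in the upper left, where shFbxo22 cells rose and shLuc cells fell.

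Calls in opposite directions under the 2 hairpins came from 4 of the 23 members. TNFRSF10D and TNFRSF12A rose with senescence in shFbxo22 cells and fell in shLuc cells (8.70% of members, against 2.05% of 18598 genes). TNFRSF11B and TNFRSF1A fell in shFbxo22 cells and rose in shLuc cells (8.70%, against 3.26%). Those that rose under both were FAS, TNFRSF10B and TNFRSF14 (13.0%, against 2.64%), and TNFRSF19 fell under both (4.35%, against 4.58%). At an adjusted p under 0.01 only TNFRSF10D of the 4 with opposite directions kept both calls. The calls of TNFRSF12A, TNFRSF11B and TNFRSF1A in shFbxo22 cells had an adjusted p of 0.0256, 0.011 and 0.0134 in the authors' deposited table.

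The signalling genes downstream of these receptors were described as lists: 19 adaptors and ubiquitin ligases, 10 genes of death signalling, 14 of the kinase and NF-kB arm and 2 sheddases that cut ligands and receptors from the membrane. Of these 45 genes, the libraries labelled shFbxo22 senescent had 11 higher and 11 lower than senescent shLuc cells in the authors' deposited table, or 48.9% against 40.1% of all genes. In young cells 16 were higher and 4 lower with shFbxo22 in the authors' deposited table, or 44.4% against 35.9%. With senescence 5 were higher and 5 lower in shFbxo22 cells in the authors' deposited table, or 22.2% against 17.7%. In shLuc cells senescence went with 18 higher and 10 lower in the authors' deposited table, or 62.2% against 42.6%. Their response differed between the hairpins for 17 of 45, 6 upward and 11 downward, a share near the 37.0% of all genes. CASP8, the initiator caspase, was called in none of the authors' deposited tables, and its adaptor FADD in 1 of them, lower in senescent shLuc cells at -0.47 ± 0.13 (adjusted p = 0.00122).

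Among the adaptors TRAF4 had the largest fold change, an unusual TRAF that is known less from TNF receptors than from cell polarity and migration. Its means were 2204 in the libraries labelled shFbxo22 senescent, 833 in young shFbxo22, 345 in senescent shLuc and 613 in young shLuc cells, rebuilt from the authors' deposited tables. With senescence it rose by 1.37 ± 0.14 in shFbxo22 cells (adjusted p = 7.44e-22) and fell in shLuc cells, at -0.84 ± 0.13 (adjusted p = 2.25e-10), in the authors' deposited tables. The order of the 4 groups is that of TNFRSF10D. BIRC2 (cIAP1), a ubiquitin ligase of the TNF receptor complex, also rose in shFbxo22 cells, by 0.76 ± 0.12 (adjusted p = 1.12e-08), and fell in shLuc cells, at -0.65 ± 0.12 (adjusted p = 1.46e-07), in the authors' deposited tables. In young cells BIRC2 was lower with shFbxo22 at -1.0 ± 0.13 (adjusted p = 4.59e-14) in the authors' deposited table.

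TRAF2, which links TNF receptors to NF-kB, was at -0.29 ± 0.18 with senescence in shFbxo22 cells (adjusted p = 0.327) and fell in shLuc cells at -1.29 ± 0.17 (adjusted p = 1.25e-13), in the authors' deposited tables. MAP3K14 (NIK), the kinase of the non-canonical NF-kB arm, was at -0.13 ± 0.13 in shFbxo22 cells (adjusted p = 0.619) and fell in shLuc cells at -1.04 ± 0.15 (adjusted p = 8.19e-12), in the authors' deposited tables. The transcription factors of that arm went the other way. RELB fell with senescence in shFbxo22 cells at -0.47 ± 0.15 (adjusted p = 0.012) and rose in shLuc cells by 1.48 ± 0.16 (adjusted p = 3.14e-20) in the authors' deposited tables. NFKB2, its partner, fell in shFbxo22 cells at -0.52 ± 0.12 (adjusted p = 0.000124) and rose in shLuc cells by 0.54 ± 0.12 (adjusted p = 1.39e-05) in the authors' deposited tables.

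RBCK1 (HOIL-1), part of the linear ubiquitin ligase, was lower in the libraries labelled shFbxo22 senescent than in senescent shLuc cells at -1.17 ± 0.12 (adjusted p = 8.5e-22), and BIRC3 (cIAP2) was higher there by 1.03 ± 0.35 (adjusted p = 0.00992), in the authors' deposited table. RIPK3, the kinase of necroptosis, was higher with shFbxo22 in young cells by 1.25 ± 0.20 (adjusted p = 2.67e-09) in the authors' deposited table. Its response to senescence, -0.42 ± 0.17 in shFbxo22 (adjusted p = 0.0753) and 0.79 ± 0.22 in shLuc cells (adjusted p = 0.000969) in the authors' deposited tables, differed between the hairpins by -1.21 ± 0.28 (adjusted p = 7.77e-05). The sheddase ADAM17 was at 0.08 ± 0.11 with senescence in shFbxo22 cells (adjusted p = 0.759) and rose in shLuc cells by 0.85 ± 0.11 (adjusted p = 3.39e-14), in the authors' deposited tables.

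Of 10 further superfamily genes with other names (TNF, LTA, LTB, FASLG, CD40LG, CD70, CD27, EDA, EDAR and RELT), RELT was the only one tested in all 4 of the authors' deposited tables. EDA was tested in 1 and not called, and the other 8 in none, including FASLG, the ligand of FAS. RELT, an orphan receptor of the family, had means of 109 in the libraries labelled shFbxo22 senescent, 68.1 in young shFbxo22, 39.6 in senescent shLuc and 192 in young shLuc cells, rebuilt from the authors' deposited tables. With senescence it rose by 0.66 ± 0.21 in shFbxo22 cells (adjusted p = 0.0143) and fell in shLuc cells at -2.28 ± 0.26 (adjusted p = 2.33e-17) in the authors' deposited tables. The difference between the hairpins, 2.94 ± 0.34 (adjusted p = 5.4e-17), was larger than that of any tested member.

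**Figure D4:**
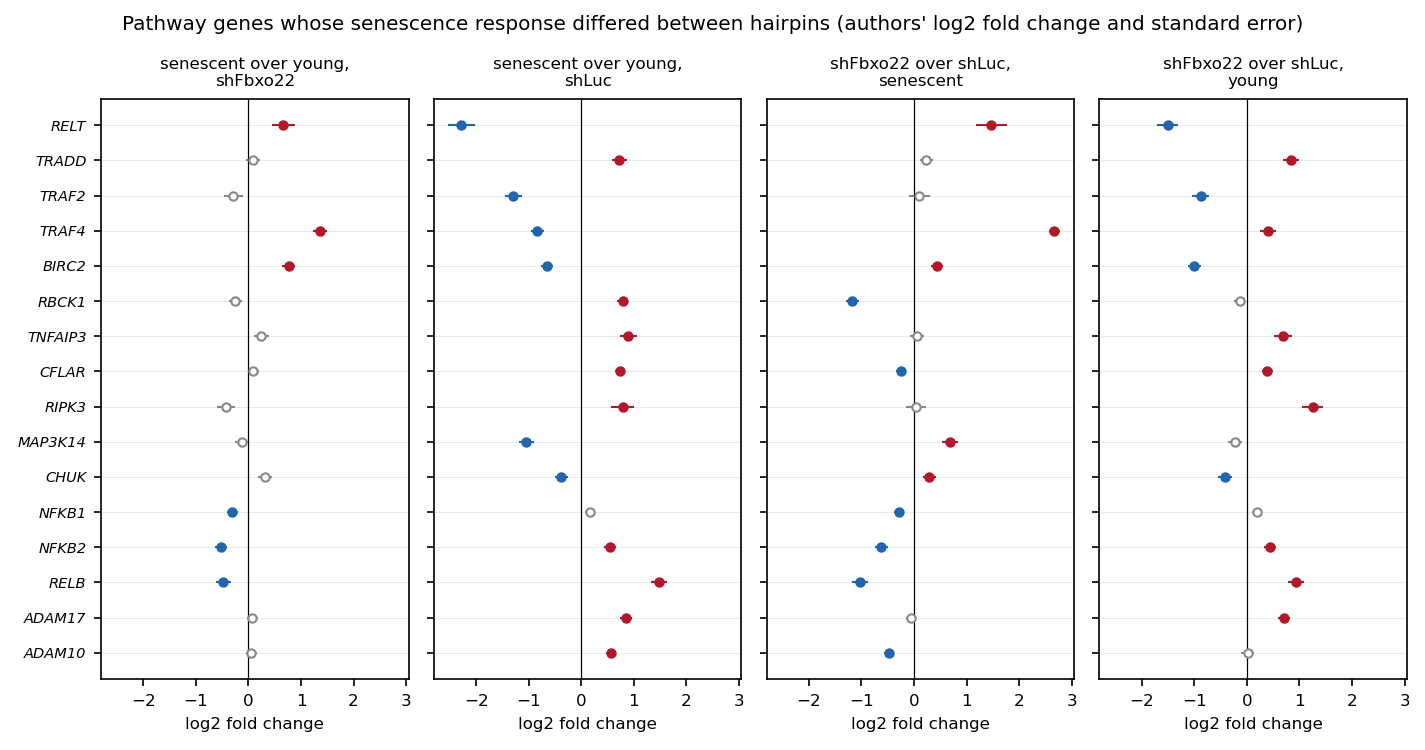
Log2 fold change (horizontal axis, with the authors' standard error as a bar) of RELT and signalling genes reported here whose senescence response differed between the hairpins, in the authors' 4 comparisons of 3 against 3 libraries. Red points were called higher, blue points lower, and open points were not called. RELT, TRAF4 and BIRC2 lie right of 0 for shFbxo22 (0.66, 1.37 and 0.76) and left of it for shLuc (-2.28, -0.84 and -0.65), while NFKB2 and RELB lie the other way round.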

How the data were processed

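RNA from 12 libraries of 1 cell line, 3 in each of 4 groups taken from the sample titles, was analysed through 4 tables of the authors' comparisons of 6 libraries each. The submitters' processing notes name DESeq2 1.14.1, R 3.2.2, STAR 2.3.0 and Bowtie2 2.0.0 with the builds GRCh37 and hg19, without their roles. Per the file headers, each of 55765 rows holds a base mean, a normalized count averaged over both groups (a signal at or above 0). The log2 fold change and standard error of each row were computed by the authors. The Wald statistic is a score deposited by the authors. Each p-value and its adjusted form come from the authors. Dates stood for gene symbols in 28 rows, which were left out.

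No table holds values of single libraries, so the authors' adjusted p under 0.05 was the call, and a row without one stayed untested. The depth per library is unknown. Fold changes were moderated towards 0, more in some tables than in others: the largest standard error was 0.333 for senescence in shFbxo22, 0.697 for senescence in shLuc, 0.645 for the hairpins in senescent and 0.528 in young cells. Changes of low genes are therefore understated, by different amounts.

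Signs were settled from base means. Of 16 choices of sign, 1 made both tables give each group the same mean, with a mean absolute log2 gap of 0.0092 over 9109 genes whose base means all reached 200, against 0.1306 for the next. It turned the tables of senescence in shFbxo22 and of the hairpins in senescent cells. The script was tested on simulated data. The response difference was tested as a two-sided normal z with Benjamini-Hochberg adjustment in Python 3.11.15 with pandas 2.3.3, numpy 2.4.6 and scipy 1.17.1.

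The members and lists were chosen with earlier results of these data known. Members called for the difference, or with an absolute log2 fold change of at least 1 in any table, were described in full, other tested members named, and list genes named at that fold, with CASP8, FADD and ADAM17 added for their roles. The alternatives tried were an adjusted p under 0.01, a fold change minimum, no filter on low base means, a minimum base mean of 50, centring on the median gene, and the difference taken from the hairpin tables. Single values of some genes of the signalling lists are not reported here.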

Additional observations from a re-analysis of the deposited data

Results flagged for a closer look

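The response to senescence differed between the hairpins, by the test of the difference itself, for 14 members, for 17 of the 45 signalling genes and for RELT. Each value here is the log2 fold change in shFbxo22 cells minus that in shLuc cells, computed from the authors' deposited tables. Higher responses in shFbxo22 cells were found for TNFRSF10D (2.64), TNFRSF12A (2.18), TNFRSF10C (1.48), TNFRSF10A (0.83), TNFRSF10B (0.83) and EDA2R (0.55). Lower responses were found for TNFSF13B (-1.98), TNFRSF1B (-1.47), TNFRSF14 (-0.84), CD40 (-0.83), TNFRSF21 (-0.70), TNFRSF11B (-0.63), TNFRSF1A (-0.60) and LTBR (-0.51).

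Outside the members, for the genes reported here, the difference was 2.94 for the orphan receptor RELT, 2.20 for TRAF4, 1.42 for BIRC2, 1.0 for TRAF2, 0.91 for MAP3K14 and 0.70 for CHUK. It was -1.95 for RELB, -1.21 for RIPK3, -1.06 for NFKB2, -1.04 for RBCK1 and -0.78 for ADAM17. Smaller lower responses were those of TNFAIP3 (-0.65), CFLAR (-0.64), TRADD (-0.63), ADAM10 (-0.51) and NFKB1 (-0.47). All of these rest on the libraries labelled shFbxo22 senescent, whose FBXO22 level goes against their label. Of all 18598 genes tested, 6873 differed by the same test.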

How the results depend on the processing

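Asking for an absolute log2 fold change of at least 1 left 7 of 13 called members for senescence in shFbxo22 cells, 4 of 12 for senescence in shLuc cells and 10 of 17 for the hairpins in young cells, by construction of that limit. With the hairpins in senescent cells 13 of 17 remained above it. An adjusted p under 0.01, no filter on low base means, a base mean of at least 50 and centring on the median gene kept each total within 1.5 times. Counts in 1 direction moved further: at an adjusted p under 0.01 the upward response differences were 3 in place of 6, the lower calls 2 in place of 4 for senescence in shFbxo22 cells and 4 in place of 7 for the senescent hairpins (also 4 with a base mean of at least 50). Of single members, 126 values on the centred scale kept direction and call, as did 22 of 23 differences taken from the hairpin tables, where the same 14 members were called. TNFSF13, called in neither, was at -0.016 there, against 0.034 in the report, and the cause was not tested. Those tables hold the same libraries, so this is no independent check. Without the filter on low base means 101 kept theirs, and 2 lost the call, TNFRSF18 (senescent hairpins) and TNFSF12 (young hairpins). No paired analysis was possible because values of single libraries are not in the tables, and leaving out single libraries was not run for the same reason. Low counts leave wide errors for low members of any role.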
